A study of Mus musculus with 47 samples.

Results

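The levels of 33 genes of cholesterol synthesis, uptake and efflux were followed in mouse kidney, out of 22474 genes in the deposited table. They were taken by name from the standard pathway, with earlier results of these data known. All 33 passed the filter on low counts, so each of them was among the 18786 genes tested. By role they were 7 enzymes of the mevalonate steps, 11 enzymes of the sterol steps, 4 genes of the SREBP control circuit, 4 intracellular sterol carriers, 5 genes of the LXR and efflux arm, and 2 genes of lipoprotein uptake and ester storage.

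The study measured polyadenylated RNA of kidney by bulk sequencing in NZO/HlLtJ, CAST/EiJ and C57BL/6J mice of both sexes. NZO/HlLtJ is an obesity-prone inbred strain, CAST/EiJ a wild-derived inbred strain and C57BL/6J the common laboratory strain, and all mice are labelled wild type. Each strain and sex was fed a diet labelled as 44% fat + fiber, which the protocol calls high in fat and sugar, or a control diet labelled as 10% fat + fiber, from 6 weeks of age, and tissue was taken at 15 weeks. The 47 libraries fall into 12 groups, 11 of which hold 4 libraries, while the CAST/EiJ males on 10% fat hold 3. The sample labels name the tissue as metanephros and the series names it as kidney.

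Cells make cholesterol from acetyl-CoA through mevalonate, isoprenoid diphosphates, squalene and lanosterol. When membrane cholesterol is low, the escort protein Scap carries the precursor of the transcription factor SREBP2 out of the endoplasmic reticulum, and SREBP2 then turns on nearly every enzyme of the route, while the Insig proteins hold it back when sterols are plentiful. When sterols are high, oxysterols activate the nuclear receptors LXRα and LXRβ, which turn on the exporters Abca1 and Abcg1. In the kidney the cells of the proximal tubule make up most of the cortex, and renal gene expression in mice is known to differ between the sexes.

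The 4 promoters below belong to members that were lower in females than in males in all 3 strains. They are shown because SREBP2 is known to act through a short sterol regulatory element beside sites for NF-Y and Sp1. Each line is the strand on which the gene is read, 5′ to 3′, and ends at the base before the RefSeq start in GRCm38.p6, except that the line of Hsd17b7 stops 36 bases short of it, where the deposited annotation begins the gene. Capitals mark matches on either strand to TCACNCCAC (sterol regulatory element), CCAAT (NF-Y site) and GGGCGG (Sp1 site).
Hmgcs1, chr13:119690191-119690350, plus strand: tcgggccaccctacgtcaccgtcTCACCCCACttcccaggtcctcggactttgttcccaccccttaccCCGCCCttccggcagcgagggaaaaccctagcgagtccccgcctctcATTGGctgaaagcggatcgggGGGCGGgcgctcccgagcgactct
Mvd, chr8:122443423-122443582, minus strand: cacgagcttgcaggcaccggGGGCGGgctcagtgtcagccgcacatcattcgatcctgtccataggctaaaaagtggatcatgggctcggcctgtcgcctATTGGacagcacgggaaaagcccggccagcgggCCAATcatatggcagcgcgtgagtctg
Nsdhl, chrX:72918361-72918520, plus strand: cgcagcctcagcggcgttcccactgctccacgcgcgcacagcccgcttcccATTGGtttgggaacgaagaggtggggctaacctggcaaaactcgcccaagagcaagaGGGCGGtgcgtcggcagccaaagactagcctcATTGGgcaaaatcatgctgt
Hsd17b7, chr1:169969242-169969401, minus strand: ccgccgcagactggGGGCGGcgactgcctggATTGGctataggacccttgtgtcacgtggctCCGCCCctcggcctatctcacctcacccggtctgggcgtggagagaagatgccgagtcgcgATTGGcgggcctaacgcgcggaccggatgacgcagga

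RefSeq's promoter table matched 26 of the 33 members. Within 250 bases before a start, TCACNCCAC was found in 2 of these 26 genes, in Hmgcs1 at 137 bases before the start and in Stard3 at 211 bases. A gene counts as holding a word where any of its promoters does, and 1.22% of all 27025 genes hold this one. CCAAT was found in 20 of the 26, against 37.5% of all genes, and GGGCGG in 21 of the 26, against 35.4%. These matches describe letters only, and binding was not measured.

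Levels are given throughout as CPM, the reads of a gene scaled to a fixed library size after TMM normalization. Library totals lay between 34394546 and 58433712 counts, with a median of 44759432 counts, and the lowest value of a member in any library was 52 counts, for Pmvk. On a scale of CPM per kilobase of exon the most abundant member was Hmgcs1 (cytosolic HMG-CoA synthase, chromosome 13, 119690462 to 119708086), at a mean of 98.5. Apoe, the apolipoprotein that carries exported cholesterol, followed at 73.7, Cyp51, the lanosterol demethylase, at 62.0, and Acat2, the thiolase that opens the route, at 42.6. The least abundant per kilobase were Abcg1, an ATP-driven sterol exporter, at 1.42 and Scarb1, the HDL receptor, at 1.48. Xist was at 863 CPM or more in every female library and at 2.43 CPM or less in every male library, as the sex labels have it.

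Strain explained a median of 44.3% of the variance of a member's log2 CPM over the 47 libraries, sex 20.02% and diet 0.469%. Strain was the largest of the 3 factors for 19 members, sex for 14 and diet for none. Cyp51 stood at one end, with 98.9% of its variance between strains. Idi1, which isomerizes isopentenyl diphosphate, had 73.8% of its variance between sexes. The largest share for diet was 6.23%, for Mvk, the mevalonate kinase.

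**Figure D1:**
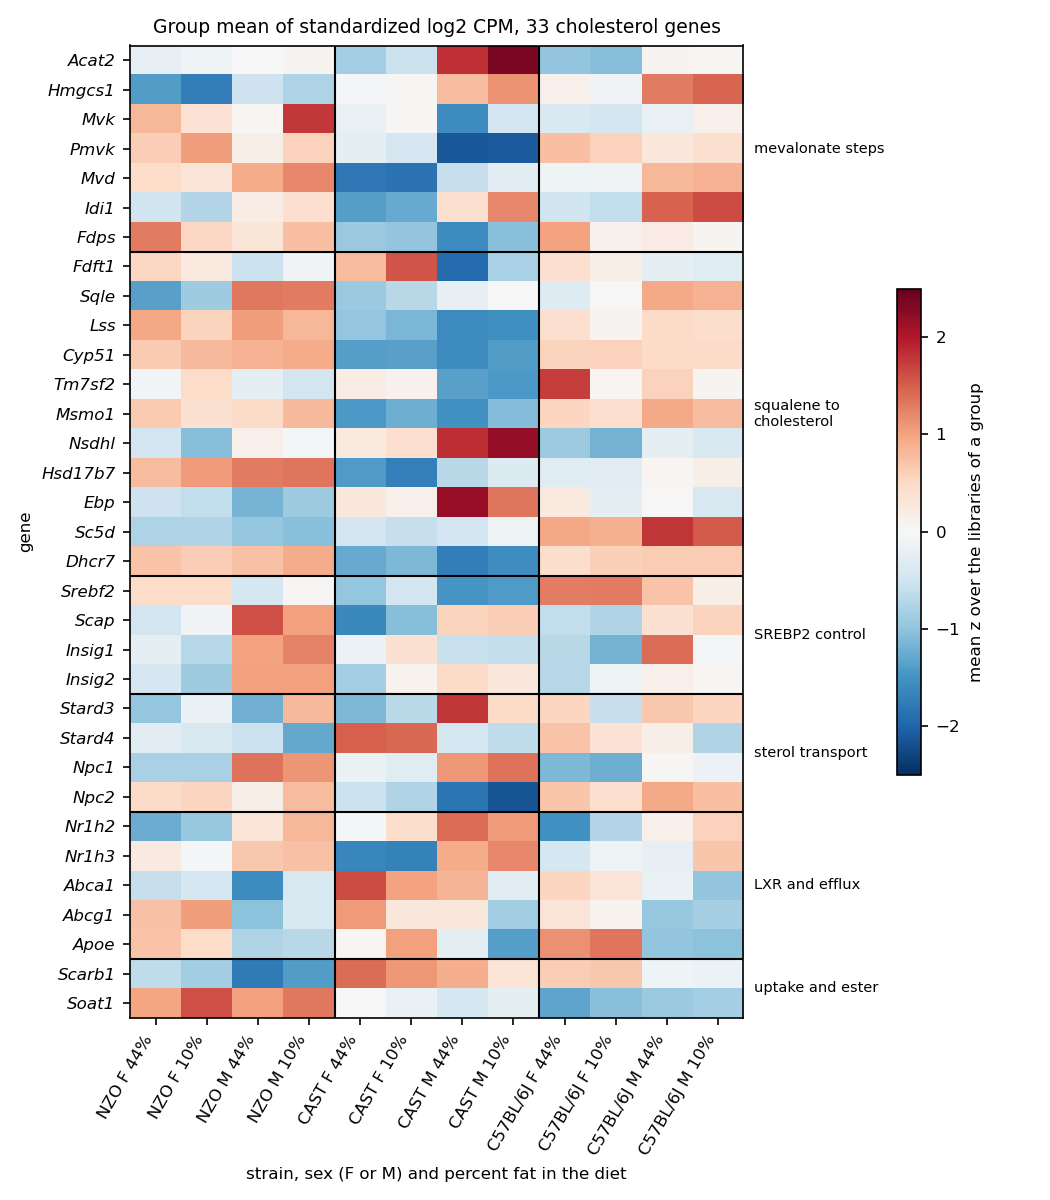
Group means of log2 CPM of the 33 members, standardized over the 47 libraries (mean z, colour scale), with genes down the side by role and groups along the bottom by strain, sex and diet. The row of Cyp51 separates CAST/EiJ from the other strains, and the row of Idi1 separates females from males.

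The comparison of females with males asked how the sexes differ within each strain, over both diets. In all 3 strains the early enzymes Hmgcs1, Mvd and Idi1 were lower in female kidney, while the efflux genes Abcg1 and Apoe and the HDL receptor Scarb1 were higher. Other members of these roles went the opposite way, with the mevalonate enzyme Pmvk higher and the LXR gene Nr1h2 lower in females of all 3 strains. In NZO/HlLtJ 21 of the 33 members passed an adjusted p of 0.05 (7 higher and 14 lower in females), which is 63.6%, against 49.9% of all genes tested. In CAST/EiJ 27 passed (13 higher and 14 lower), which is 81.8%, against 47.6% of all genes. In C57BL/6J 20 passed (7 higher and 13 lower), which is 60.6%, against 47.9% of all genes. The median log2 fold change of the members was -0.06, 0.11 and -0.09 in NZO/HlLtJ, CAST/EiJ and C57BL/6J, beside 0.04, 0.05 and 0.05 for all genes. In bulk tissue, fewer cells of a type and less RNA per cell cannot be told apart. Nothing in the labels says that the libraries come from different animals, so a p-value here sets an effect against the scatter of libraries, which may be technical.

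The members lower in females of all 3 strains were 9, namely Hmgcs1, Mvd, Idi1, Sqle, Nsdhl, Hsd17b7, Scap, Npc1 and Nr1h2. Those higher in females of all 3 strains were 5, namely Pmvk, Srebf2, Abcg1, Apoe and Scarb1. The share of all genes called in the same direction in all 3 strains was not computed. Whether 9 and 5 are more than among other genes was thus not tested. Fdps, Lss and Msmo1 passed in no strain. The calls on Sqle and Abcg1 in CAST/EiJ and on Pmvk in C57BL/6J are the less certain of these: leaving out 1 library gave adjusted p-values up to 0.11, 0.115 and 0.133, and they were called in 6 of 15, 6 of 15 and 7 of 16 such fits. Of the 21, 27 and 20 calls in NZO/HlLtJ, CAST/EiJ and C57BL/6J, 16, 22 and 16 held in every such fit.

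**Figure D2:**
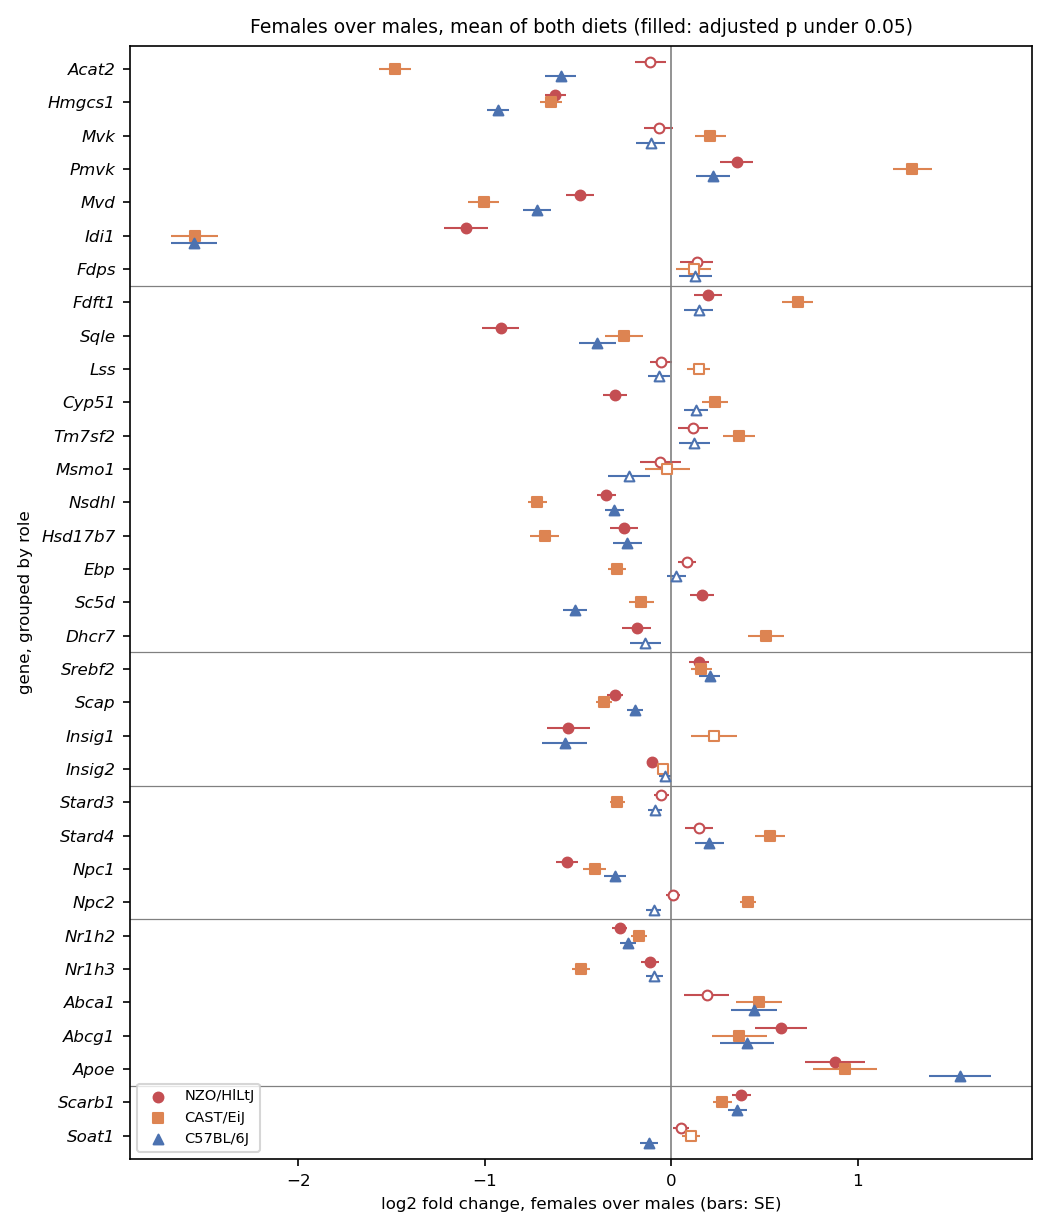
Log2 fold change, females over males, of each member in NZO/HlLtJ, CAST/EiJ and C57BL/6J, with standard errors from edgeR; filled points passed an adjusted p of 0.05. Idi1 lies farthest to the left in each strain, at -1.10, -2.55 and -2.56, and Apoe lies to the right in each, at 0.88, 0.93 and 1.55.

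Among the mevalonate genes, 3 were lower and 1 higher in females of NZO/HlLtJ, 4 lower and 2 higher in CAST/EiJ, and 4 lower and 1 higher in C57BL/6J, of 7 in each. Of all genes, 49.9%, 47.6% and 47.9% were called in either direction in these strains, in the same order. Idi1 (chromosome 13, 8885501 to 8892451) had the widest gap. In C57BL/6J it ran from 29.1 to 48.0 CPM in females (median 39.0, 8 libraries), against 187 to 274 CPM in males (median 219, 8 libraries). In CAST/EiJ it ran from 17.8 to 26.0 CPM in females (median 19.1), against 61.8 to 180 CPM in males (median 101). In NZO/HlLtJ it ran from 25.4 to 45.5 CPM in females (median 37.9), against 56.0 to 106 CPM in males (median 78.8). No female library reached the lowest male library of its strain, and the CAST/EiJ females were the lowest of all. The log2 fold changes were -2.56 ± 0.12 (SE) in C57BL/6J, -2.55 ± 0.13 in CAST/EiJ and -1.10 ± 0.12 in NZO/HlLtJ, with adjusted p-values of 5.04e-19, 8.66e-19 and 5.73e-10. The difference was smaller in NZO/HlLtJ than in C57BL/6J by 1.46 ± 0.17 on the log2 scale (adjusted p = 7.40e-08). A share of 27.1% of Idi1's 31-base words is also found in the annotated copy Gm13502, which reached at most 2.91 CPM.

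Hmgcs1 makes HMG-CoA, the substrate from which mevalonate is formed. Its female libraries ran from 165 to 224 CPM (median 202), against 266 to 356 CPM in males (median 302), in NZO/HlLtJ. In C57BL/6J the females ran from 348 to 444 CPM (median 422), against 654 to 861 CPM in males (median 776). The sexes did not overlap in either strain, nor in CAST/EiJ. The log2 fold changes were -0.62 ± 0.06, -0.64 ± 0.06 and -0.93 ± 0.06 in NZO/HlLtJ, CAST/EiJ and C57BL/6J (adjusted p = 2.70e-12, 3.40e-12 and 3.08e-17). The difference was smaller than in C57BL/6J both in NZO/HlLtJ (by 0.31 log2, adjusted p = 0.0143) and in CAST/EiJ (by 0.29 log2, adjusted p = 0.0141).

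Mvd, which decarboxylates mevalonate diphosphate, lay at 29.4 to 38.0 CPM in NZO/HlLtJ females, against 38.4 to 50.9 CPM in males. In CAST/EiJ it lay at 8.80 to 13.6 CPM in females, against 18.5 to 27.2 CPM in males, and in C57BL/6J at 24.1 to 27.0 CPM in females, against 34.2 to 46.4 CPM in males. The sexes were apart in every strain, with log2 fold changes of -0.49 ± 0.07, -1.01 ± 0.08 and -0.72 ± 0.08. Pmvk, which adds the phosphate just before that step, was higher in females. It lay at 3.81 to 6.18 CPM in CAST/EiJ females, against 1.40 to 2.51 CPM in males, with no overlap and a log2 fold change of 1.29 ± 0.11 (adjusted p = 1.37e-13). In NZO/HlLtJ and C57BL/6J the changes were 0.35 ± 0.09 and 0.23 ± 0.09, with overlapping libraries, and the change in CAST/EiJ exceeded that in C57BL/6J by 1.07 ± 0.14 (adjusted p = 1.62e-07).

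Acat2 differed by strain in its response to sex. CAST/EiJ females lay at 56.0 to 108 CPM (median 78.8), against 172 to 278 CPM in males (median 208), a log2 fold change of -1.48 ± 0.09 (adjusted p = 2.31e-17). C57BL/6J females lay at 66.9 to 71.5 CPM, against 89.8 to 120 CPM in males, a change of -0.59 ± 0.08. In NZO/HlLtJ the change was -0.11 ± 0.08 (adjusted p = 0.272). Relative to C57BL/6J, the female minus male difference was 0.89 lower in CAST/EiJ (log2 -0.89 ± 0.12, adjusted p = 5.53e-07) and 0.48 ± 0.12 higher in NZO/HlLtJ (adjusted p = 0.00872). Its paralog Acat3 shares 43.7% of the 31-base words of Acat2 and was listed at 4.48 to 42.7 CPM, so the split of reads between the copies is uncertain. Acat3 itself had log2 fold changes of -1.40 in CAST/EiJ (adjusted p = 4.10e-08), -0.73 in C57BL/6J (adjusted p = 0.000602) and 0.23 in NZO/HlLtJ (adjusted p = 0.237).

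Of the 11 sterol enzymes, 5 were lower and 2 higher in NZO/HlLtJ females, 5 lower and 4 higher in CAST/EiJ females, and 4 lower and none higher in C57BL/6J females. In the same order of strains, 49.9%, 47.6% and 47.9% of all genes were called in either direction. Sqle, the squalene epoxidase, ran from 36.6 to 56.9 CPM in NZO/HlLtJ females (median 47.1), against 80.5 to 102 CPM in males (median 87.9). In C57BL/6J it ran from 47.05 to 74.6 CPM in females (median 61.6), against 65.5 to 84.5 CPM in males (median 82.3). The sexes were apart in NZO/HlLtJ and overlapped in C57BL/6J, with log2 fold changes of -0.91 ± 0.10 and -0.40 ± 0.10. The difference between these 2 strains was -0.52 ± 0.14 (adjusted p = 0.0191), and without replicate 4 of the C57BL/6J females on 44% fat its adjusted p was 0.0618.

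Nsdhl and Hsd17b7 are the dehydrogenase and the reductase that act one after the other in removing the C-4 methyl groups. Nsdhl ran from 63.4 to 76.1 CPM in CAST/EiJ females (median 70.0), against 104 to 127 CPM in males (median 114). Hsd17b7 ran from 11.1 to 17.8 CPM in CAST/EiJ females (median 16.5), against 20.4 to 33.1 CPM in males (median 22.8). Neither gene's sexes overlapped in CAST/EiJ. The log2 fold changes of Nsdhl were -0.35 ± 0.05 in NZO/HlLtJ, -0.72 ± 0.05 in CAST/EiJ and -0.30 ± 0.05 in C57BL/6J, and those of Hsd17b7 were -0.25 ± 0.07, -0.68 ± 0.08 and -0.23 ± 0.08. Both changes were stronger in CAST/EiJ than in C57BL/6J, by -0.41 ± 0.07 and -0.44 ± 0.11 (adjusted p = 4.29e-05 and 0.00401). Nsdhl lies on the X chromosome, as does Ebp, the sterol isomerase, which was lower in females of CAST/EiJ alone among the calls (-0.29 ± 0.05) and there differed from C57BL/6J by -0.32 ± 0.07 (adjusted p = 0.00103).

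A further 3 sterol enzymes had calls in opposite directions. Sc5d, the lathosterol oxidase, ran from 23.9 to 29.5 CPM in C57BL/6J females, against 32.4 to 42.7 CPM in males, with no overlap and a log2 fold change of -0.52 ± 0.06 (adjusted p = 5.07e-09). In NZO/HlLtJ its change was 0.17 ± 0.07 (adjusted p = 0.0323) and differed from that in C57BL/6J by 0.68 ± 0.09 (adjusted p = 7.38e-07). Cyp51 ran from 352 to 488 CPM in NZO/HlLtJ females (median 432), against 455 to 637 CPM in males (median 499), a change of -0.30 ± 0.06 (adjusted p = 0.000101). In CAST/EiJ, where the gene was far less abundant, its change was 0.23 ± 0.07 (adjusted p = 0.00474). Dhcr7, which catalyses the last reduction to cholesterol, had changes of -0.19 ± 0.08 in NZO/HlLtJ (adjusted p = 0.0454) and 0.51 ± 0.10 in CAST/EiJ (adjusted p = 3.09e-05). The NZO/HlLtJ calls on Sc5d and Dhcr7 held in 10 and 7 of 16 fits that left out 1 library, with adjusted p-values up to 0.135 and 0.177, and the CAST/EiJ call on Sc5d (-0.16 ± 0.07) held in 3 of 15, up to 0.128. Fdft1, the squalene synthase, was higher in CAST/EiJ females at 19.95 to 28.7 CPM, against 13.4 to 21.5 CPM in males (log2 0.68 ± 0.08), and 31.9% of its 31-base words are shared with the overlapping gene Ctsb.

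**Figure D3:**
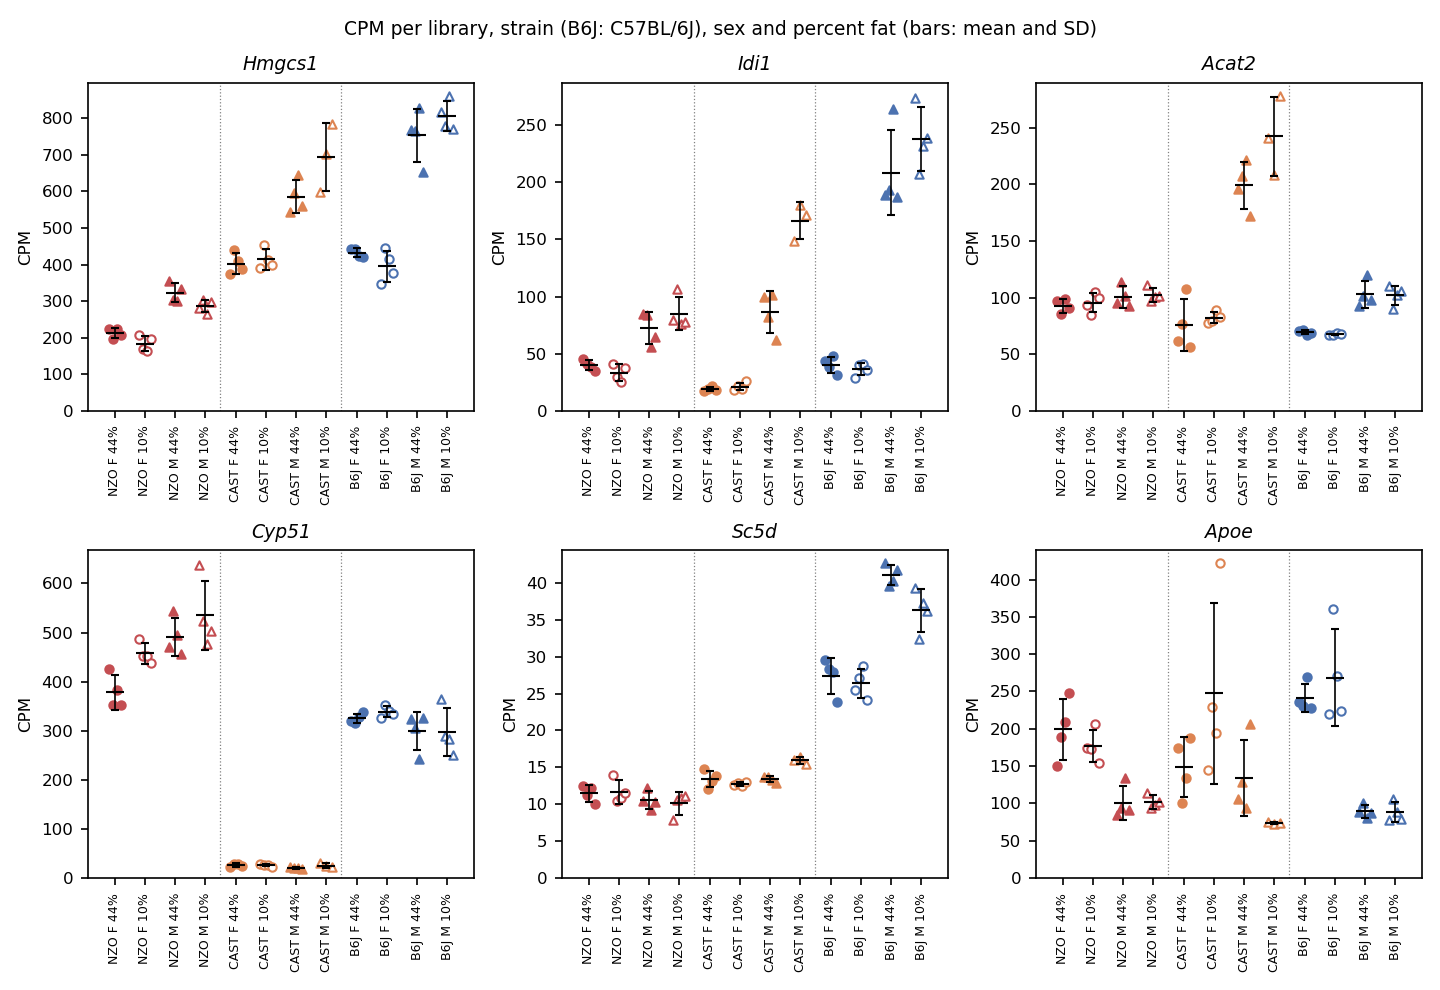
CPM of Hmgcs1, Idi1, Acat2, Cyp51, Sc5d and Apoe in every library (points), by strain, sex and diet, with bars at the group mean and SD. The libraries of females lie below those of males for Hmgcs1 and Idi1 in every strain, and above them for Apoe in NZO/HlLtJ and C57BL/6J without overlap.

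In the control circuit, the escort gene Scap was lower and the SREBP2 gene Srebf2 higher in females of all 3 strains. Scap ran from 73.2 to 85.3 CPM in CAST/EiJ females (median 76.3), against 97.9 to 102 CPM in males (median 99.5), with no overlap. Its log2 fold changes were -0.30 ± 0.04 in NZO/HlLtJ, -0.36 ± 0.04 in CAST/EiJ and -0.19 ± 0.04 in C57BL/6J. Srebf2 had changes of 0.15 ± 0.05, 0.16 ± 0.06 and 0.21 ± 0.06, each with overlapping libraries. Its call was lost in NZO/HlLtJ without replicate 1 or 4 of the females on 10% fat or replicate 4 of the males on 44% fat, and in CAST/EiJ without replicate 3 of the males on 10% fat, with adjusted p-values up to 0.0700 and 0.0910. Insig1, which retains the complex when sterols are high, ran from 24.4 to 39.3 CPM in NZO/HlLtJ females (median 33.7), against 45.1 to 53.1 CPM in males (median 47.5). It was lower in females of NZO/HlLtJ (-0.55 ± 0.12) and of C57BL/6J (-0.57 ± 0.12), while in CAST/EiJ its change was 0.23 ± 0.12 (adjusted p = 0.124) and differed from that in C57BL/6J by 0.80 ± 0.17 (adjusted p = 0.000948). Insig2, its paralog, changed by -0.10 ± 0.03 in NZO/HlLtJ (adjusted p = 0.00605).

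Among the carriers, Npc1, the membrane protein that lets cholesterol out of lysosomes, was lower in females of all 3 strains. It ran from 23.4 to 32.3 CPM in NZO/HlLtJ females (median 26.6), against 37.2 to 42.5 CPM in males (median 40.3), and from 27.7 to 33.4 CPM in CAST/EiJ females (median 29.7), against 35.5 to 46.97 CPM in males (median 38.6). The sexes were apart in both strains, and the log2 fold changes were -0.56 ± 0.06, -0.41 ± 0.06 and, in C57BL/6J, -0.30 ± 0.06. Npc2, its soluble partner, ran from 50.2 to 57.7 CPM in CAST/EiJ females, against 37.1 to 45.2 CPM in males, a change of 0.41 ± 0.04 (adjusted p = 6.66e-11) that exceeded the one in C57BL/6J by 0.51 ± 0.06 (adjusted p = 1.23e-08). Stard4, a soluble sterol carrier, ran from 124 to 145 CPM in CAST/EiJ females, against 77.1 to 114 CPM in males (0.53 ± 0.08), and changed by 0.20 ± 0.08 in C57BL/6J. That C57BL/6J call held in 11 of 16 fits that left out 1 library, with adjusted p-values up to 0.0692, and was lost without the filter on low counts and in a fit of C57BL/6J alone. Stard3, a sterol carrier that tethers late endosomes to the endoplasmic reticulum, ran from 15.96 to 18.3 CPM in CAST/EiJ females, against 19.5 to 23.3 CPM in males (-0.29 ± 0.04).

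In the efflux arm, Apoe (chromosome 7, 19696109 to 19699188) was higher in females of every strain. It ran from 220 to 360 CPM in C57BL/6J females (median 234), against 77.4 to 107 CPM in males (median 87.8). In NZO/HlLtJ it ran from 151 to 248 CPM in females (median 182), against 84.4 to 134 CPM in males (median 96.3), and in CAST/EiJ from 100 to 422 CPM in females (median 181), against 72.6 to 207 CPM in males (median 93.3). The sexes overlapped only in CAST/EiJ, where the females were widely spread. The log2 fold changes were 0.88 ± 0.16 in NZO/HlLtJ, 0.93 ± 0.17 in CAST/EiJ and 1.55 ± 0.17 in C57BL/6J (adjusted p = 2.29e-05, 2.44e-05 and 1.12e-09). Abcg1 changed by 0.59 ± 0.14, 0.37 ± 0.15 and 0.41 ± 0.15 in the same order of strains. Abca1, the exporter that loads cholesterol onto lipid-poor apolipoprotein, ran from 68.7 to 89.6 CPM in C57BL/6J females, against 39.5 to 67.1 CPM in males (0.44 ± 0.12), and changed by 0.47 ± 0.13 in CAST/EiJ.

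Both LXR genes had their calls on the lower side in females. Nr1h2, which encodes LXRβ, ran from 39.6 to 46.2 CPM in NZO/HlLtJ females, against 46.3 to 59.6 CPM in males, and its log2 fold changes were -0.28 ± 0.04, -0.17 ± 0.04 and -0.23 ± 0.04 in NZO/HlLtJ, CAST/EiJ and C57BL/6J. Nr1h3, which encodes LXRα, ran from 22.6 to 28.3 CPM in CAST/EiJ females, against 32.5 to 37.3 CPM in males (-0.49 ± 0.05, adjusted p = 5.47e-11), and this differed from the change in C57BL/6J by -0.40 ± 0.07 (adjusted p = 3.79e-05). Its call in NZO/HlLtJ was less certain and was lost in several fits that left out 1 library. Without replicate 2 of the males on 44% fat the change there was -0.09 (adjusted p = 0.111). Scarb1 ran from 13.7 to 15.8 CPM in C57BL/6J females, against 10.6 to 12.3 CPM in males, and its changes were 0.38 ± 0.05, 0.28 ± 0.05 and 0.36 ± 0.05 in NZO/HlLtJ, CAST/EiJ and C57BL/6J. Soat1, which esterifies cholesterol for storage, changed by -0.12 ± 0.05 in C57BL/6J (adjusted p = 0.0337), a call that held in 9 of 16 fits that left out 1 library, with adjusted p-values up to 0.0969.

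The test of the sex difference itself between strains called 15 of the 33 members for CAST/EiJ against C57BL/6J (9 higher and 6 lower), which is 45.5%, against 13.2% of all genes. For NZO/HlLtJ against C57BL/6J it called 6 (4 higher and 2 lower), which is 18.2%, against 4.95% of all genes. The members named in one test and not in the other were not compared further, since both tests use the C57BL/6J libraries. The remaining calls for CAST/EiJ were Sc5d (0.36 ± 0.09), Dhcr7 (0.65 ± 0.13), Fdft1 (0.53 ± 0.11), Stard3 (-0.20 ± 0.06), Stard4 (0.32 ± 0.11) and Soat1 (0.23 ± 0.07). The call on Stard4 held in 12 of 31 fits that left out 1 library, with adjusted p-values up to 0.141. The remaining call for NZO/HlLtJ was Cyp51 (-0.44 ± 0.09, adjusted p = 0.00123).

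Markers of other kidney segments moved with sex, since in each strain 7 of 8 were higher and none lower in females, where 49.9%, 47.6% and 47.9% of all genes were called in either direction in NZO/HlLtJ, CAST/EiJ and C57BL/6J. Of 10 adipocyte markers, 7 were higher in NZO/HlLtJ females, and they summed to 5.28 to 14.6 CPM there, against 1.66 to 7.60 CPM in males. The part of these markers in the differences above was not tested. The 7 proximal tubule markers summed to 11122 to 17374 CPM over all libraries. Of these 7, 2 were higher and 2 lower in NZO/HlLtJ females, 4 and 2 in CAST/EiJ, and 3 and 2 in C57BL/6J. On 10% fat their sums were 15710 to 17374 CPM in NZO/HlLtJ females, against 11758 to 13100 CPM in males. In the other combinations of strain and diet the sums of the sexes overlapped. Summed adrenal markers, of which 6 of 13 were in the table, were at 26.8 to 37.2 CPM in females and 35.0 to 52.5 CPM in males. Of the 4 tested, 1, 2 and 1 were higher in females of NZO/HlLtJ, CAST/EiJ and C57BL/6J, and 1 was lower in each. The higher sum in males thus did not hold for the list as a whole. Over all libraries, summed endothelial markers (7 genes) lay between 375 and 525 CPM and adipocyte markers between 1.66 and 46.6 CPM. Of the endothelial markers, 3, 5 and 4 were higher and none lower in females of NZO/HlLtJ, CAST/EiJ and C57BL/6J. The part of the proximal tubule and endothelial markers in the sex differences was not tested. Of the adrenal genes, Cyp11a1 was at 0.163 CPM or less and Mc2r at 0.281 CPM or less in every library. Others of the list were higher, with Hsd3b1 at up to 1.70 CPM and Star at 0.595 to 3.25 CPM.

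The comparison of strains asked how the strains differ on the control diet, as the mean of both sexes. Against C57BL/6J, CAST/EiJ had lower levels of most sterol enzymes, and NZO/HlLtJ had less Hmgcs1, Sc5d and Scarb1 and more Soat1. For NZO/HlLtJ against C57BL/6J 14 members passed (10 higher and 4 lower), which is 42.4%, against 36.9% of all genes. For CAST/EiJ against C57BL/6J 21 passed (8 higher and 13 lower), which is 63.6%, against 60% of all genes. For NZO/HlLtJ against CAST/EiJ 22 passed (13 higher and 9 lower), which is 66.7%, against 59.1% of all genes. These shares lie close to those of all genes, and the 3 comparisons share their libraries. The members' median log2 fold changes were 0.03, -0.07 and 0.11, beside 0.00, 0.01 and -0.01 for all genes.

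Markers of other cell types also differed between strains on 10% fat. Liver markers, of which 6 of 7 were in the table, summed to 20.9 to 293 CPM in CAST/EiJ, against 624 to 872 CPM in C57BL/6J, and 5 of the 6 were lower and 1 higher (median log2 fold change -3.42). Alb, the defining liver gene, lay between 0.436 and 21.5 CPM over all libraries. Of 10 adipocyte markers, 8 were lower in NZO/HlLtJ than in CAST/EiJ, with sums of 1.98 to 14.6 CPM in NZO/HlLtJ, against 9.21 to 32.6 CPM in CAST/EiJ, and 4 were lower in NZO/HlLtJ than in C57BL/6J. Of 11 macrophage markers, 5 were lower and 1 higher in NZO/HlLtJ than in C57BL/6J, and 5 were lower and 2 higher in CAST/EiJ. Of all genes, 36.9% and 60% were called in either direction for NZO/HlLtJ and CAST/EiJ against C57BL/6J. For NZO/HlLtJ against CAST/EiJ the share was 59.1%. Whether the marker counts exceed these shares was not tested, nor was the part of the markers in the strain differences. The sources used here do not give whether reads of NZO/HlLtJ and CAST/EiJ were mapped to those strains' own genomes, and the part of mapping in the fold changes between strains, that of Cyp51 included, was not tested.

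**Figure D4:**
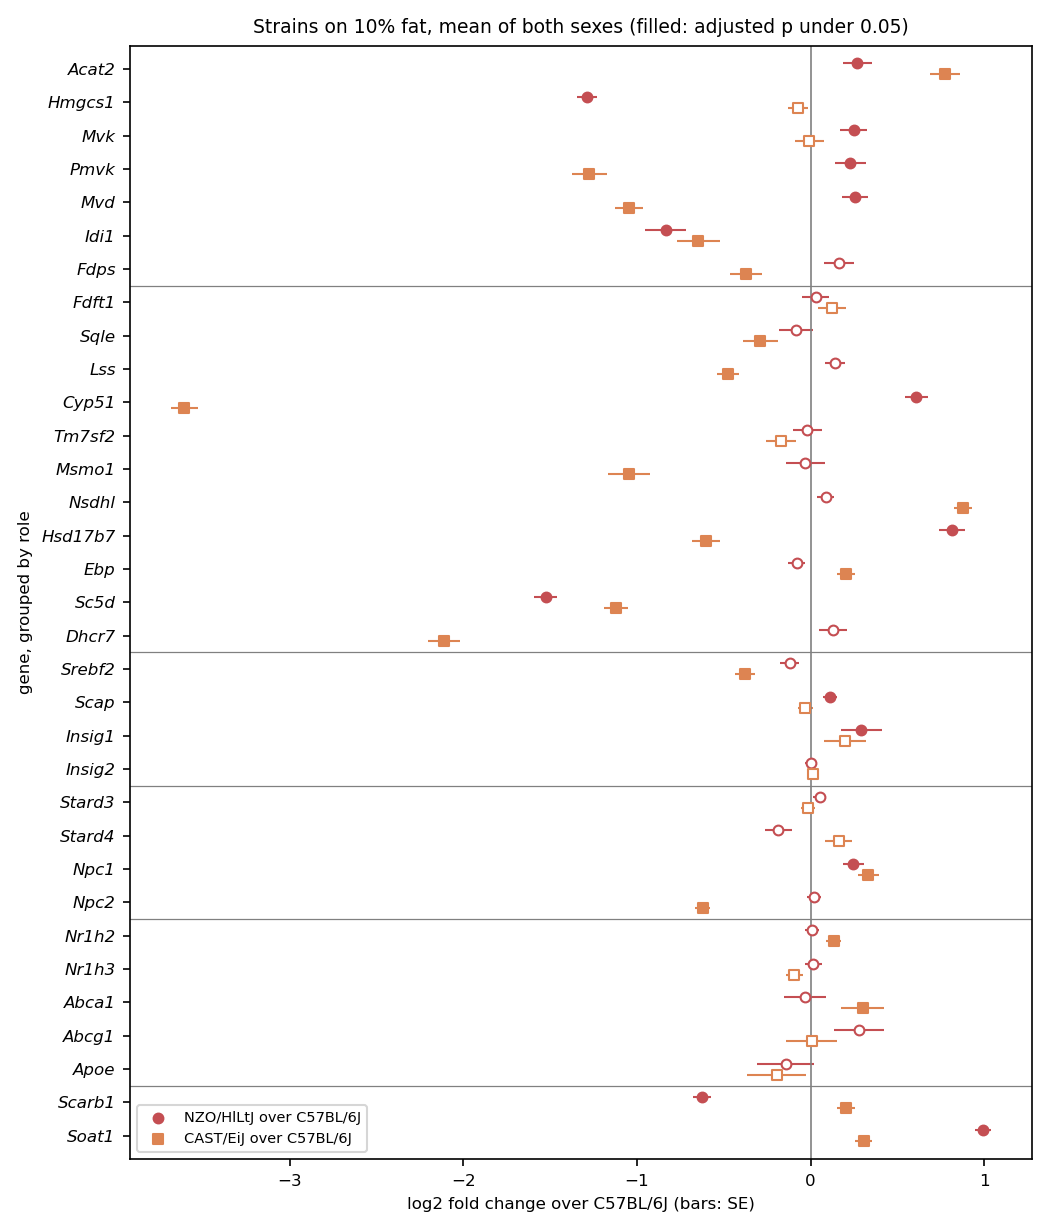
Log2 fold change of NZO/HlLtJ and of CAST/EiJ over C57BL/6J on 10% fat for each member, with standard errors from edgeR; filled points passed an adjusted p of 0.05. In CAST/EiJ, Cyp51 and Dhcr7 lie farthest from 0, at -3.61 and -2.11, and in NZO/HlLtJ Sc5d and Hmgcs1 do, at -1.52 and -1.29.

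Cyp51 (chromosome 5, 4081145 to 4104746) had the largest strain difference among the members. It ran from 22.1 to 30.4 CPM in CAST/EiJ (median 27.1, 7 libraries), against 250 to 364 CPM in C57BL/6J (median 331, 8 libraries). NZO/HlLtJ ran from 437 to 637 CPM (median 482, 8 libraries). The 3 strains did not overlap, with NZO/HlLtJ highest and CAST/EiJ lowest. CAST/EiJ was 12.2-fold below C57BL/6J (log2 -3.61 ± 0.08, adjusted p = 6.53e-34). NZO/HlLtJ was above C57BL/6J by 0.61 ± 0.06 (adjusted p = 1.79e-10) and 18.6-fold above CAST/EiJ.

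Dhcr7 was likewise low in CAST/EiJ. It ran from 2.46 to 5.24 CPM there (median 4.05), against 15.5 to 19.9 CPM in C57BL/6J (median 17.4), a log2 fold change of -2.11 ± 0.09 (adjusted p = 6.66e-23). NZO/HlLtJ ran from 15.6 to 24.5 CPM (median 19.6) and lay above CAST/EiJ by 2.24 ± 0.09. Sc5d was low in both other strains, at 7.85 to 14.01 CPM in NZO/HlLtJ and 12.5 to 16.4 CPM in CAST/EiJ, against 24.1 to 39.3 CPM in C57BL/6J. Neither overlapped with C57BL/6J, and the changes were -1.52 ± 0.07 and -1.12 ± 0.07 (adjusted p = 1.09e-22 and 3.04e-18).

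Of the 11 sterol enzymes, 2 were higher and 7 lower in CAST/EiJ than in C57BL/6J, and 2 were higher and 1 lower in NZO/HlLtJ, where 60% and 36.9% of all genes were called in either direction. The other sterol enzymes lower in CAST/EiJ were Msmo1, the C-4 methyl oxidase (-1.04 ± 0.12), Hsd17b7 (-0.60 ± 0.08), Lss, the lanosterol synthase (-0.48 ± 0.06), and Sqle (-0.29 ± 0.10). The higher ones were Nsdhl and Ebp. Nsdhl ran from 67.9 to 127 CPM in CAST/EiJ (median 76.1), against 42.3 to 64.5 CPM in C57BL/6J (median 48.8), with no overlap and a log2 fold change of 0.88 ± 0.05 (adjusted p = 1.99e-18). Hsd17b7 ran from 45.2 to 64.0 CPM in NZO/HlLtJ (median 51.9), against 24.3 to 38.3 CPM in C57BL/6J (median 30.5), a change of 0.81 ± 0.08, so that calls on this enzyme had opposite signs in the 2 strains relative to C57BL/6J.

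Among the mevalonate genes, Hmgcs1 ran from 165 to 303 CPM in NZO/HlLtJ (median 237), against 348 to 861 CPM in C57BL/6J (median 608). Every NZO/HlLtJ library of either sex lay below every C57BL/6J library, with a log2 fold change of -1.29 ± 0.06 (adjusted p = 8.79e-22). NZO/HlLtJ was also below CAST/EiJ (log2 -1.21 ± 0.06), whose libraries ran from 390 to 783 CPM. Pmvk ran from 1.56 to 4.78 CPM in CAST/EiJ (median 3.81), against 6.17 to 7.70 CPM in C57BL/6J (median 6.91), a change of -1.27 ± 0.10. Mvd changed by -1.05 ± 0.08 in CAST/EiJ and by 0.25 ± 0.08 in NZO/HlLtJ, and Idi1 by -0.65 ± 0.12 and -0.83 ± 0.12. The change of Idi1 in NZO/HlLtJ lay mostly in males. Over both diets its means were 36.7 CPM in NZO/HlLtJ and 38.4 CPM in C57BL/6J females, against 78.6 and 223 CPM in males. In CAST/EiJ they were 20.3 CPM in females and 121 CPM in males. Acat2 was higher in CAST/EiJ by 0.77 ± 0.09 and in NZO/HlLtJ by 0.27 ± 0.08. Over both diets its means in NZO/HlLtJ and C57BL/6J were 94.2 and 68.4 CPM in females, and 101.7 and 102.4 CPM in males. In CAST/EiJ they were 78.9 and 218 CPM. Its paralog Acat3 changed by 1.01 in NZO/HlLtJ (adjusted p = 7.00e-06) and by -0.31 in CAST/EiJ (adjusted p = 0.139). The part of reads shared with Acat3 was not tested. Fdps, the farnesyl diphosphate synthase, was lower in CAST/EiJ (-0.37 ± 0.09).

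Among the genes of uptake, storage and carriage, Soat1 ran from 58.3 to 69.8 CPM in NZO/HlLtJ (median 64.3), against 29.9 to 36.9 CPM in C57BL/6J (median 31.5). The libraries did not overlap, with a log2 fold change of 0.99 ± 0.05 (adjusted p = 2.64e-21), and CAST/EiJ was higher by 0.30 ± 0.05. Scarb1 ran from 7.20 to 9.76 CPM in NZO/HlLtJ (median 8.52), against 10.6 to 15.7 CPM in C57BL/6J (median 13.3), a change of -0.63 ± 0.05, and CAST/EiJ was higher by 0.20 ± 0.05. Npc2 ran from 37.1 to 57.4 CPM in CAST/EiJ (median 50.2), against 65.4 to 75.7 CPM in C57BL/6J (median 70.3), a change of -0.62 ± 0.04 (adjusted p = 1.77e-16). Npc1 was higher in both strains, by 0.25 ± 0.06 in NZO/HlLtJ and 0.33 ± 0.06 in CAST/EiJ, and Srebf2 was lower in CAST/EiJ (-0.38 ± 0.06). Fdft1, Tm7sf2 (a sterol reductase), Insig2, Stard3, Nr1h3, Abcg1 and Apoe passed in no comparison of strains. The calls on Insig1, Pmvk and Scap in NZO/HlLtJ against C57BL/6J held in 5, 5 and 9 of 16 fits that left out 1 library, with adjusted p-values up to 0.133, 0.102 and 0.173, and the call on Abca1 in CAST/EiJ held in 5 of 15, up to 0.115.

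The comparison of diets asked whether 44% fat changed these genes within a strain, as the mean of both sexes. Few members changed, and none by as much as 2-fold. In NZO/HlLtJ 4 members passed (1 higher and 3 lower on 44% fat), which is 12.1%, against 3.62% of all genes (680 genes, or 319 to 1004 when 1 library was left out). In CAST/EiJ 2 passed (1 higher and 1 lower), which is 6.06%, against 0.99% of all genes (186, or 57 to 330). In C57BL/6J none passed in edgeR or in any other fit tried, against 0.0266% of all genes, and 6 members had an unadjusted p under 0.05. Over all strains and sexes, Cyp51 (-0.13 ± 0.04, adjusted p = 0.0401) and Soat1 (-0.09 ± 0.03, adjusted p = 0.0458) passed, which is 6.06%, against 3.81% of all genes. Those calls held in 25 and 16 of 47 fits that left out 1 library, with adjusted p-values up to 0.0949 and 0.0811.

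Stard3 in NZO/HlLtJ had the smallest adjusted p of any member. Females had 16.8, 17.8, 17.2 and 16.6 CPM on 44% fat, against 17.6, 18.5, 19.8 and 18.1 CPM on 10% fat. Males had 16.2, 17.6, 16.01 and 16.9 CPM on 44% fat, against 22.5, 19.1, 19.6 and 20.3 CPM on 10% fat. The diets were apart in males, and in females the highest library on 44% fat lay above the lowest on 10% fat. The log2 fold change was -0.20 ± 0.04 (adjusted p = 0.00207). It was 0.07 ± 0.04 in CAST/EiJ and 0.09 ± 0.04 in C57BL/6J, where neither passed. The diet effect in NZO/HlLtJ was lower than in CAST/EiJ (difference -0.27 ± 0.06, adjusted p = 0.0138), in every fit that left out 1 library. It was also lower than in C57BL/6J (difference -0.29 ± 0.06, adjusted p = 0.0428), which held in 10 of 32 such fits with adjusted p-values up to 0.1004. Both calls were lost in fits of the compared strains alone.

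Soat1 was lower in NZO/HlLtJ on 44% fat as well. Females had 60.5, 51.4, 57.8 and 56.2 CPM on 44% fat, against 66.7, 64.6, 68.6 and 69.8 CPM on 10% fat. Males had 58.8, 57.8, 56.9 and 54.4 CPM on 44% fat, against 64.0, 62.8, 63.7 and 58.3 CPM on 10% fat. The diets were apart in females, and 1 male library on 10% fat lay among those on 44% fat. The log2 fold change was -0.19 ± 0.05 (adjusted p = 0.0109), and the calls on Stard3 and Soat1 held in all 16 fits that left out 1 library.

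The other calls in NZO/HlLtJ were closer to the threshold. Pmvk had 6.97, 8.72, 6.84 and 7.15 CPM in females on 44% fat, against 9.14, 8.18, 9.12 and 10.1 CPM on 10% fat. In males it had 5.59, 5.90, 6.24 and 5.41 CPM on 44% fat, against 7.55, 7.31, 6.99 and 6.92 CPM on 10% fat, so that the male diets were apart. Its log2 fold change was -0.31 ± 0.09 (adjusted p = 0.0422), called in 5 of 16 fits that left out 1 library, with adjusted p-values up to 0.0978. Hmgcs1 had 223, 197, 224 and 209 CPM in females on 44% fat, against 207, 168, 165 and 196 CPM on 10% fat, and 356, 303, 300 and 333 CPM in males on 44% fat, against 281, 303, 266 and 298 CPM on 10% fat. The diets overlapped in both sexes, and the change was 0.19 ± 0.06 (adjusted p = 0.0471), called in 6 of 16 such fits, with adjusted p-values up to 0.164.

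Markers of kidney segments and of liver moved with diet in the same mice. Summed proximal tubule markers were at 13240 to 15084 CPM in NZO/HlLtJ females on 44% fat, against 15710 to 17374 CPM on 10% fat, with no overlap, and at 12565 to 13535 CPM in males on 44% fat, against 11758 to 13100 CPM on 10% fat. None of the 7 passed on its own, while 3 of 8 markers of other segments were lower on 44% fat. Summed liver markers, a sum that can rest largely on Apob, were at 700 to 819 CPM in females on 44% fat, against 517 to 660 CPM on 10% fat. Of the 6, 1 was higher and 1 lower. Of all genes, 3.62% were called in the same comparison. The part of these markers in the calls on diet was not tested.

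**Figure D5:**
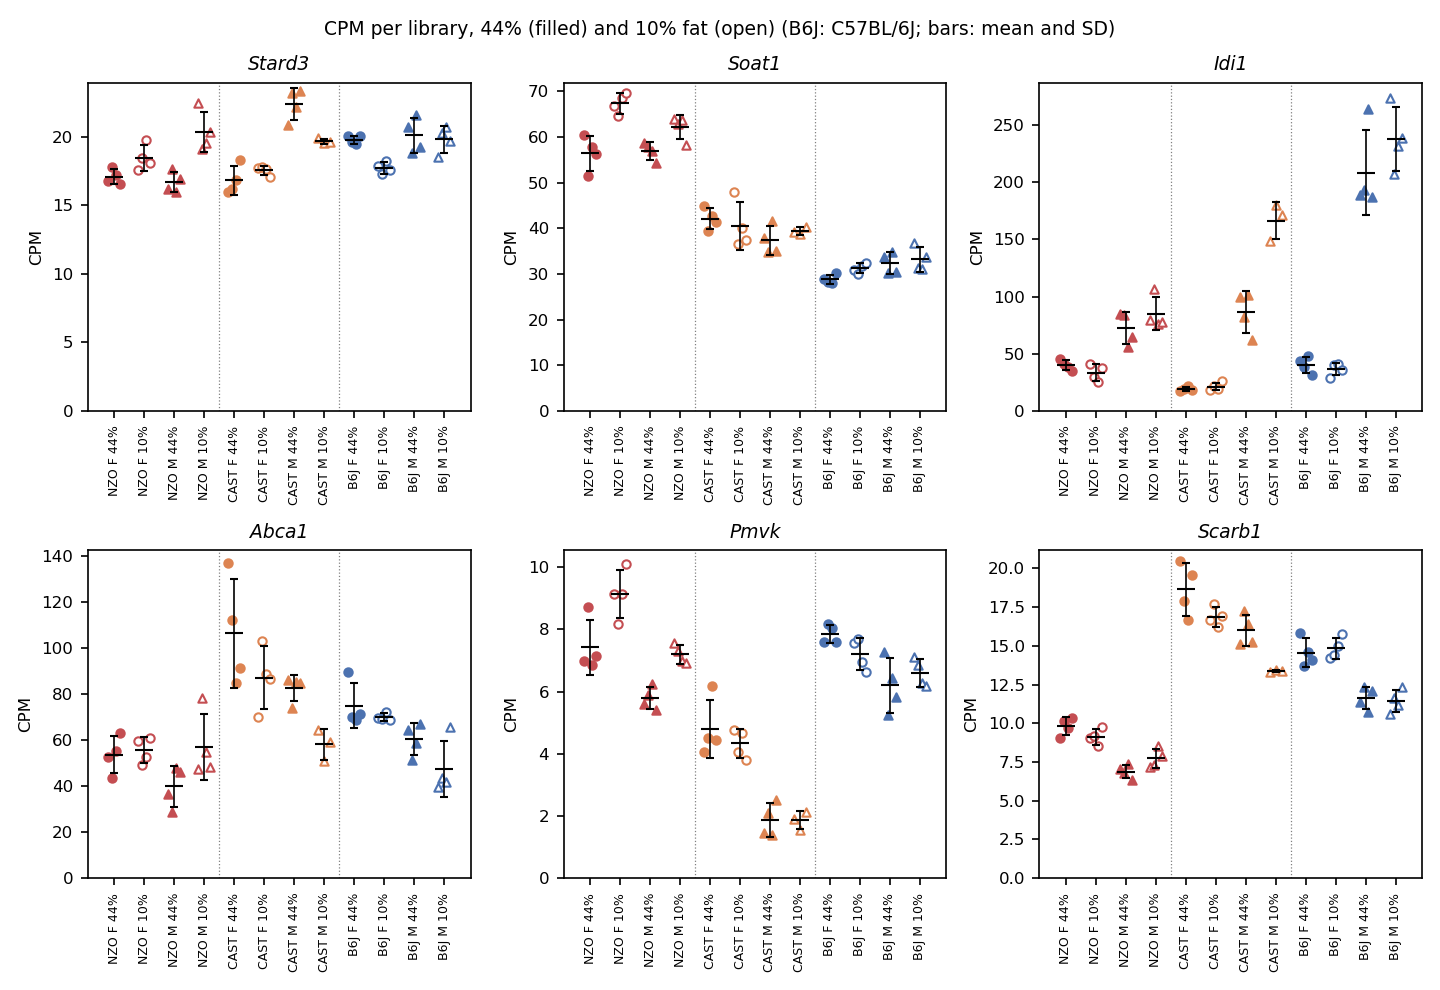
CPM in every library of Stard3, Soat1, Idi1, Abca1, Pmvk and Scarb1, by strain, sex and diet, with bars at the group mean and SD. Stard3 is lower on 44% fat in the NZO/HlLtJ males, and Idi1 is lower on 44% fat in the CAST/EiJ males.

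In CAST/EiJ the call on Idi1 came with a wide gap in males. They had 99.7, 82.2, 101 and 61.8 CPM on 44% fat, against 148, 180 and 172 CPM on 10% fat, with no overlap. Females had 17.8, 19.2, 21.4 and 18.6 CPM on 44% fat, against 18.7, 21.4, 19.0 and 26.0 CPM on 10% fat, which overlap. The log2 fold change over both sexes was -0.56 ± 0.12 (adjusted p = 0.0186). The test of the female minus male diet effect gave 0.80 ± 0.24 and missed the threshold (adjusted p = 0.409). The call was lost without replicate 2 of the males on 10% fat (adjusted p = 0.0733) and without replicate 4 of the females on 10% fat (adjusted p = 0.0505), and in a fit of the CAST/EiJ libraries alone (adjusted p = 0.0678).

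Scarb1 in CAST/EiJ had 20.5, 17.9, 16.7 and 19.6 CPM in females on 44% fat, against 16.6, 17.7, 16.2 and 16.9 CPM on 10% fat. Males had 15.1, 17.2, 16.4 and 15.3 CPM on 44% fat, against 13.3, 13.4 and 13.4 CPM on 10% fat. The diets were apart in males and overlapped in females, and the log2 fold change was 0.20 ± 0.05 (adjusted p = 0.0370), called in 5 of 15 fits that left out 1 library, with adjusted p-values up to 0.0995. Summed macrophage markers moved with diet in the same mice, at 163 to 210 CPM in females on 44% fat, against 144 to 154 CPM on 10% fat, and at 187 to 210 CPM in males on 44% fat, against 155 to 177 CPM on 10% fat. Of the 11 macrophage markers, 1 passed on its own, against 0.99% of all genes. The part of these markers in the results above was not tested.

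The diet effects of 2 strains were also compared directly. Between NZO/HlLtJ and CAST/EiJ 3 members passed (1 higher and 2 lower), which is 9.09%, against 1.28% of all genes (241, or 112 to 343 when 1 library was left out). Besides Stard3 they were Hmgcs1 (0.35 ± 0.08, adjusted p = 0.0262) and Abca1 (-0.69 ± 0.17, adjusted p = 0.0393). Abca1 had 36.7, 28.7, 48.1 and 45.9 CPM in NZO/HlLtJ males on 44% fat, against 47.4, 78.2, 54.7 and 48.4 CPM on 10% fat. In CAST/EiJ males it had 86.0, 74.0, 85.5 and 85.1 CPM on 44% fat, against 64.4, 50.9 and 59.2 CPM on 10% fat. The values lay lower on 44% fat in the NZO/HlLtJ males, with 1 library above the lowest on 10% fat, and higher without overlap in the CAST/EiJ males. The effect within each strain was -0.29 ± 0.12 in NZO/HlLtJ and 0.40 ± 0.13 in CAST/EiJ, and neither passed alone (adjusted p = 0.197 and 0.107). The call on the difference held in 15 of 31 fits that left out 1 library, up to 0.0842, and that on Hmgcs1 was lost without replicate 1 of the NZO/HlLtJ males on 44% fat and without replicate 3 of the CAST/EiJ males on 10% fat (adjusted p up to 0.0678). Between NZO/HlLtJ and C57BL/6J only Stard3 passed, which is 3.03%, against 0.0373% of all genes. In fits of the compared strains alone, no member passed for NZO/HlLtJ against CAST/EiJ or against C57BL/6J. Between CAST/EiJ and C57BL/6J no member passed in edgeR or any other fit tried, against 0.0532% of all genes, and 8 had an unadjusted p under 0.05.

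No member passed the test of whether diet acted differently in females and males. That test called 0.00532% of all genes in NZO/HlLtJ, 0.0479% in CAST/EiJ and 0% in C57BL/6J. The members with an unadjusted p under 0.05 numbered 7, 6 and 1 in the same order. DESeq2's Wald test called 1 member in CAST/EiJ, and fits that left out 1 library called 0 to 1 there. In NZO/HlLtJ and C57BL/6J no fit tried called a member. All 7 mevalonate genes had a more positive diet effect in females than in males in each strain. The medians over them were 0.36 in NZO/HlLtJ, 0.19 in CAST/EiJ and 0.22 in C57BL/6J on the log2 scale, and 52.2%, 51.1% and 51.5% of all genes were positive. The 7 genes share a pathway and the same libraries, so they do not count as separate tests against that share. Other roles were mixed. In the same order of strains, 6, 9 and 6 of 11 sterol enzymes and 3, 0 and 1 of 4 control genes were positive. In NZO/HlLtJ the test also sets libraries of run 89 against libraries of run 81, by the sample numbers described below. The part of run there was not tested.

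Other genes of the pathway were read from 4 further lists. Their counts stand against the shares of all genes called in the same comparisons, which were 3.62% and 0.99% for diet in NZO/HlLtJ and CAST/EiJ, 47.6% to 49.9% for sex, and 36.9% and 60% for NZO/HlLtJ and CAST/EiJ against C57BL/6J. In NZO/HlLtJ on 44% fat, 2 of 9 further LXR targets were lower, namely Scd1, the stearoyl-CoA desaturase (-0.75), and Srebf1, which encodes SREBP1 (-0.50). Of 17 further genes of lipoprotein traffic, 1 was higher, Lipa, the lysosomal acid lipase (0.25). Of 11 genes of oxysterols and esters, 1 was lower, Nceh1, a cholesteryl ester hydrolase (-0.24), and of 11 further SREBP genes 1 was lower, Mbtps1, the protease that first cleaves SREBP (-0.14). In CAST/EiJ on 44% fat, Lpcat3, a phospholipid acyltransferase and LXR target, was higher (0.19), and its diet effect was lower in NZO/HlLtJ than in CAST/EiJ (difference -0.25).

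Between the sexes, Cyp7b1, the oxysterol 7α-hydroxylase, had the widest gap of these lists. It ran from 1.60 to 2.77 CPM in C57BL/6J females, against 195 to 254 CPM in males, from 4.07 to 21.5 CPM in CAST/EiJ females, against 62.7 to 83.9 CPM in males, and from 3.21 to 12.8 CPM in NZO/HlLtJ females, against 140 to 221 CPM in males. No libraries overlapped, and the log2 fold changes were -6.70, -2.62 and -4.91 in C57BL/6J, CAST/EiJ and NZO/HlLtJ. Cd36, the fatty acid and lipoprotein scavenger receptor, changed by -2.25, -2.06 and -1.70 in the same order. Nceh1 was higher in females of all 3 strains, by 0.65, 0.50 and 0.61. Over the 4 lists, further SREBP genes were 3 higher and 4 lower in NZO/HlLtJ females, 1 and 7 in CAST/EiJ and 3 and 4 in C57BL/6J, of 11, while further genes of oxysterols and esters were 5 higher and 2 lower, 5 and 2, and 6 and 2, of 11. Further LXR targets were 5 higher and 2 lower in NZO/HlLtJ females, 3 and 2 in CAST/EiJ and 4 and 2 in C57BL/6J, of 9, and further genes of lipoprotein traffic were 7 higher and 4 lower, 5 and 3, and 8 and 3, of 17. Between strains, NZO/HlLtJ against C57BL/6J on 10% fat had 4 of the SREBP genes higher and 3 lower, and CAST/EiJ against C57BL/6J had 4 higher and 4 lower. Of the LXR targets, 2 were higher and 2 lower in NZO/HlLtJ, and 1 was higher and 4 lower in CAST/EiJ.

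The sample numbers in the titles fall into 3 runs, beginning 77, 81 and 89, and the labels do not say what they are. No gene in edgeR's test, and so no member, differed between the runs at an adjusted p of 0.05, while 1258 genes and 2 members had an unadjusted p under 0.05. Within each run, all members called for sex in C57BL/6J and CAST/EiJ kept their sign except Abcg1 in run 89 of C57BL/6J and Cyp51 in run 77 of CAST/EiJ. For strains, the 21 members called in CAST/EiJ against C57BL/6J kept their sign in every run, and the exceptions elsewhere were Npc1 and Acat2 for NZO/HlLtJ against C57BL/6J and Acat2 and Stard4 for NZO/HlLtJ against CAST/EiJ, in 1 run each. For NZO/HlLtJ, only run 77 holds both sexes and both diets in a form that can be compared, and all 21 calls on sex and all 4 on diet had the same sign there. In CAST/EiJ the diet calls kept their sign in each run, with log2 differences of -0.32, -0.52 and -0.87 for Idi1 and 0.24, 0.14 and 0.22 for Scarb1 in runs 77, 81 and 89.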

How the data were processed

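Polyadenylated RNA of kidney was sequenced as paired reads of 100 bases with ERCC spike-ins added before library construction, per the labels' protocols. The deposited table holds expected counts per gene made by the authors, of which 25.9% are not whole; the rounded values were used. A deposited matrix of variance-stabilized values on a log2 scale was used in one alternative. GRCm38 and DESeq2 are named in the submitters' processing notes. The aligner, the counter, the use of strand in counting and whether each strain's reads were mapped to its own genome are not given in the sources used here.

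After filterByExpr over the 12 groups, 18786 of 22474 genes were tested and 3688 set aside. In edgeR 4.0.16 (R 4.3.3) 1 quasi-likelihood fit with TMM scaling, 12 group means and the run of sample numbers as a term covered all 47 libraries, with 33 residual degrees of freedom. Adjusted p-values are Benjamini-Hochberg over all genes in each of 18 comparisons, the threshold is 0.05, and ± gives the standard error of a log2 fold change. The scripts were tested on simulated counts. Alternatives used DESeq2 1.42.0 (size factors, Wald test), limma 3.58.1 (voom with sample weights, and the deposited log2 values), no filter, no run term, only the strains compared, and each library left out.

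The members and lists were chosen with earlier results of these data known. Library values are printed for members called in a comparison, at most 4 for each role, smallest adjusted p first, and at most 3 genes of each further list are named. Further items are not reported here. Promoters come from RefSeq, GRCm38.p6.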

Additional observations from a re-analysis of the deposited data

Results flagged for a closer look

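In groups of 4, 1 library stood far from the other 3 for 22 of 363 combinations of member and group, and chance gives about 1 in 20, here about 18.15. In NZO/HlLtJ females on 44% fat these were Pmvk at 8.72 CPM (others 6.84 to 7.15) and Fdft1 at 26.8 CPM (others 20.6 to 21.1). In NZO/HlLtJ females on 10% fat they were Tm7sf2 at 7.27 CPM (others 8.37 to 8.42) and Hsd17b7 at 45.2 CPM (others 51.8 to 52.0). In NZO/HlLtJ males on 44% fat Fdft1 was at 16.6 CPM (others 19.0), Stard4 at 108.3 CPM (others 87.8 to 91.3) and Npc1 at 37.2 CPM (others 41.9 to 42.5). In NZO/HlLtJ males on 10% fat Mvk was at 8.38 CPM (others 9.55 to 9.61), Idi1 at 106 CPM (others 75.9 to 79.9) and Sc5d at 7.85 CPM (others 10.6 to 11.1).

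In CAST/EiJ females on 44% fat Fdft1 was at 19.95 CPM (others 24.3 to 25.1) and Scap at 77.6 CPM (others 74.4 to 74.9), and on 10% fat Sqle was at 41.9 CPM (others 55.1 to 56.2). In CAST/EiJ males on 44% fat Mvd was at 24.1 CPM (others 18.5 to 19.3) and Abca1 at 74.0 CPM (others 85.1 to 86.0). In C57BL/6J females on 44% fat Abca1 was at 89.6 CPM (others 68.7 to 71.4). In C57BL/6J males on 44% fat Idi1 was at 264 CPM (others 187 to 193), Fdps at 17.2 CPM (others 14.04 to 14.5) and Dhcr7 at 15.9 CPM (others 18.1 to 18.5). In C57BL/6J males on 10% fat Sqle was at 65.5 CPM (others 81.5 to 83.4), Scap at 108.6 CPM (others 96.3 to 97.2) and Abca1 at 65.7 CPM (others 39.5 to 43.4).

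Effects that differed between strains by the test of the difference, on the log2 scale, were these. The diet effect of NZO/HlLtJ minus that of C57BL/6J was -0.29 for Stard3. The diet effect of NZO/HlLtJ minus that of CAST/EiJ was 0.35 for Hmgcs1, -0.27 for Stard3 and -0.69 for Abca1. The sex difference (females minus males) of NZO/HlLtJ minus that of C57BL/6J was 0.48 for Acat2, 0.31 for Hmgcs1, 1.46 for Idi1, -0.52 for Sqle, -0.44 for Cyp51 and 0.68 for Sc5d. The sex difference of CAST/EiJ minus that of C57BL/6J was positive for Hmgcs1 (0.29), Pmvk (1.07), Fdft1 (0.53), Sc5d (0.36), Dhcr7 (0.65), Insig1 (0.80), Stard4 (0.32), Npc2 (0.51) and Soat1 (0.23). It was negative for Acat2 (-0.89), Nsdhl (-0.41), Hsd17b7 (-0.44), Ebp (-0.32), Stard3 (-0.20) and Nr1h3 (-0.40).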

How the results depend on the processing

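Across 4004 alternative values of called members, 3683 stayed on the same side of the threshold, 321 no longer passed it and 0 changed sign. Of 516 counts of called members, 426 stayed within 1.5 times the value reported and 90 did not. No paired analysis was possible because the labels give no replicate numbers. Fitted on the compared strains alone, the diet counts were 0 in CAST/EiJ, 0 for NZO/HlLtJ minus C57BL/6J and 0 for NZO/HlLtJ minus CAST/EiJ. Without the filter they were 1 over all strains and 0 for NZO/HlLtJ minus C57BL/6J, and without the run term 1 over all strains. DESeq2's Wald test gave 7 for NZO/HlLtJ minus CAST/EiJ and, for diet by sex in CAST/EiJ, 1.

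Leaving out each library gave 2 to 5 diet calls in NZO/HlLtJ, 0 to 3 in CAST/EiJ, 0 to 0 in C57BL/6J and 0 to 2 over all strains. The differences between diet effects ranged over 0 to 1 (NZO/HlLtJ minus C57BL/6J), 0 to 0 (CAST/EiJ minus C57BL/6J) and 1 to 5 (NZO/HlLtJ minus CAST/EiJ), and those between the sexes over 0 to 0, 0 to 1 and 0 to 0 in NZO/HlLtJ, CAST/EiJ and C57BL/6J. The sex counts ranged over 18 to 22, 22 to 27 and 17 to 21, their differences from C57BL/6J over 5 to 7 and 14 to 18, and the strain counts over 11 to 15 (NZO/HlLtJ against C57BL/6J), 20 to 22 (CAST/EiJ against C57BL/6J) and 21 to 24 (NZO/HlLtJ against CAST/EiJ). The cause of these moves was not tested, except that fits on fewer libraries or strains hold fewer samples.

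Counts over all genes moved most for diet. In NZO/HlLtJ 680 genes were called, against 273 on its own libraries. In CAST/EiJ 186 were called, against 432 by DESeq2, 501 by voom and 47 on its own libraries. For NZO/HlLtJ minus CAST/EiJ 241 were called, against 505, 474 and 62. The other alternatives gave 0 to 27 for 5 in C57BL/6J, 0 to 22 for 7 in NZO/HlLtJ minus C57BL/6J (3, 0% higher, with DESeq2's size factors, against 42.9% higher), 0 to 47 for 10 in CAST/EiJ minus C57BL/6J, and 0 to 36, 0 to 29 and 0 to 1 for 1, 9 and 0 in the tests of diet by sex. How depth limits the calls on low members such as Pmvk was not tested.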
